A study of Drosophila melanogaster with 18 samples.

Results

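The change in gene expression that goes with the *tud* mutation was compared between ovaries and female brains of *Drosophila melanogaster*. For each gene, the difference between *tud* mutant and wild-type libraries was taken in the ovary and in the female brain, and the brain difference was subtracted from the ovary difference. Of the 7747 genes with a mean FPKM (fragments mapped to a gene, scaled by the length of its transcripts and the size of the library) of at least 1 in both tissues, 36 genes (0.465%) passed the test of this tissue difference. The table holds 17288 gene identifiers, and 12 of the 18 libraries of the study entered the comparison, 3 in each of 4 groups.

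The *tud* mutant flies were y, w; tud1, bw, sp over Df(2R)Pu-rP133, a deficiency of the region that holds *tud*, and gave the ovaries and the brains of the mutant groups. The flies that the labels call wild-type were y, w; tud1, bw, sp over CyO, P[w+, hs-hid], and so were *tud* heterozygotes. All groups thus shared y, w and the tud1, bw, sp chromosome, and the genotypes differed in the whole other second chromosome as well as in *tud*. The effects of *tud*, of the deficiency and of the balancer with its transgene cannot be told apart in these groups. The flies were described as young, the brains were dissected by hand and many brains were pooled, and nothing in the sources says that replicate libraries came from separate cultures, so the p-values measure the spread between these libraries.

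Tudor is a large protein of germ granules, the RNA and protein bodies at the posterior pole of the oocyte and around nurse cell nuclei, and binds Piwi-family proteins through its Tudor domains. Maternal *tud* is needed for the primordial germ cells of the embryo. Piwi-family proteins carry piRNAs, small RNAs that silence transposable elements, mainly in the gonads. The ovary holds germline cells and somatic follicle cells, whereas the brain holds neurons and glia, so a gene can have different transcripts, regulators and cells of origin in the 2 tissues.

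The markers *osk* and *elav* separated the 2 tissues. The germ plasm gene *osk* was at 508 FPKM or more in every ovary and at most 0.710 FPKM in every female brain. The neuronal gene *elav* was at most 0.854 FPKM in every ovary, and between 35.5 and 54.6 FPKM in mutant and between 18.02 and 39.3 FPKM in wild-type female brains. Other markers were less clear. The germline gene *orb* was at 14.7 to 25.2 FPKM in mutant and 5.87 to 12.5 FPKM in wild-type female brains. The 17 fat body markers added up to 2628 to 12718 FPKM in mutant and 4574 to 13026 FPKM in wild-type female brains. In male brains they added up to 617 to 817 FPKM in mutant and 324 to 740 FPKM in wild-type. The part of fat body RNA in the female brain values was not tested. The ovary libraries were closely alike, with a median Pearson correlation to the other ovary libraries of 0.970 to 0.974 across genes. The female brain libraries had 0.906 to 0.954, the lowest being *tud* mutant replicate 2. The residual SD of a gene on the log2 scale had a median of 0.105 in the ovary and 0.255 in the female brain. The sequencing depth is not given in the files, so the depth behind an FPKM value is unknown, and a value of 0 may be a failed estimate.

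**Figure D1:**
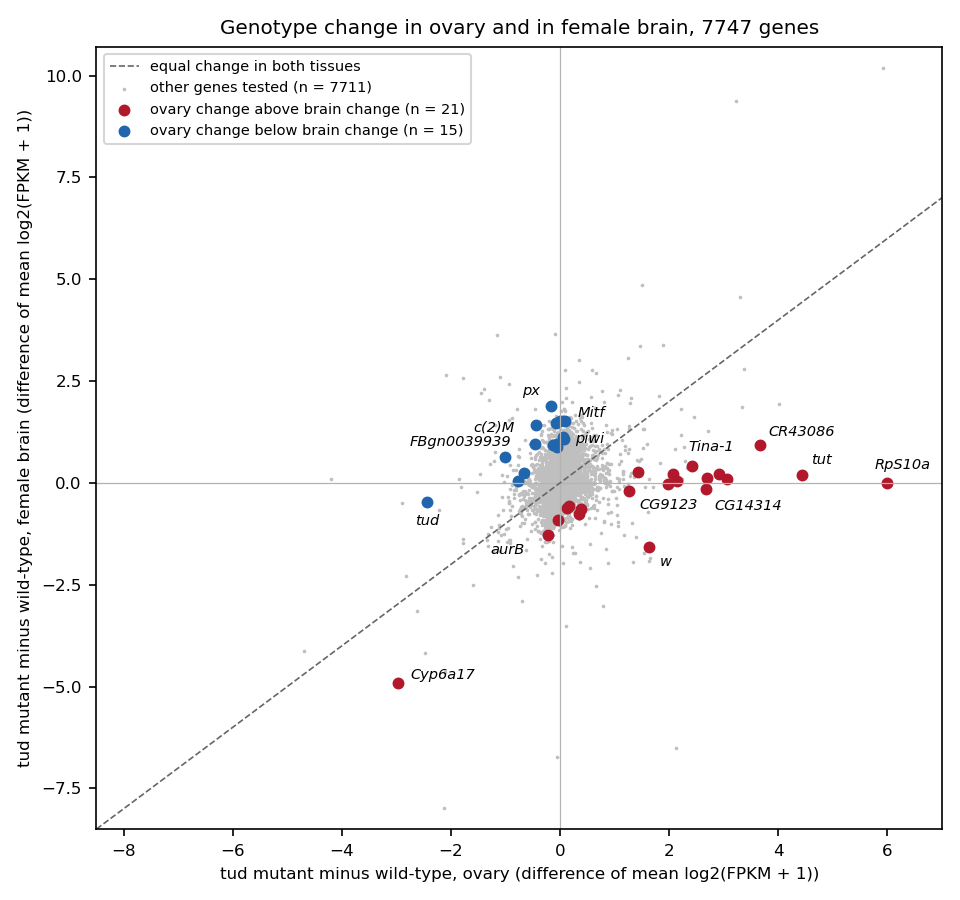
Difference between tud mutant and wild-type in the ovary (horizontal) and in the female brain (vertical), both as differences of mean log2(FPKM + 1), for 7747 genes. The dashed line marks an equal change in both tissues. The 21 genes whose ovary change was above their brain change lie below the line, the 15 genes whose ovary change was below their brain change lie above it, and most of both sets lie close to one of the axes.

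Tested on log2(FPKM + 1) with limma and Benjamini-Hochberg adjustment over all 7747 genes, 21 genes (0.271%) had an ovary change above the brain change and 15 genes (0.194%) had an ovary change below it. Before adjustment 1535 genes (19.8%) had a p under 0.05, 790 above and 745 below. The genes past the test split evenly by where the larger change was. In 18 genes the ovary change was the larger in size, 14 of them with the ovary change above the brain change. In the other 18 the brain change was the larger, 11 of them with the brain change above the ovary change. The 2 changes had opposite signs in 20 genes and the same sign in 16.

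The changes of the single tissues were uneven in number. In the fit of the ovary libraries 284 of the 7747 genes (3.67%) passed the test, 171 higher and 113 lower in the mutant. In the fit of the female brain libraries 10 genes (0.129%) passed, 4 higher and 6 lower, and 4 genes passed in both fits. Of the 36 genes with a tissue difference, 19 passed in the ovary alone, *px* passed in the female brain alone, *Cyp6a17* passed in both and 15 passed in neither. These counts come from the same libraries as the tissue difference and only describe the genes. The mutant and wild-type libraries did not overlap in the ovary for 26 of the 36 genes, in the female brain for 23 and in both for 13. The genes were chosen with these same libraries, and the share over all genes was not counted for these 2 tissues. Most, 31, are protein-coding, 15 lie on the second chromosome, and 2 are identifiers without an entry in the annotation used. Of all 7747 genes tested, 6954 are protein-coding, 2923 lie on the second chromosome and 166 have no position.

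The targeted gene was among them. *tud* (FBgn0003891, dm6 2R from 21183322 to 21192913, plus strand) was at 9.104, 11.6 and 12.4 FPKM in mutant ovaries, against 67.2, 60.99 and 63.2 FPKM in wild-type ovaries. In female brains it was at 15.3, 32.3 and 14.1 FPKM in mutant and 31.4, 26.03 and 23.9 FPKM in wild-type libraries. Every mutant ovary was thus far below every wild-type ovary, while the library labelled *tud* mutant female brain replicate 2 was above all 3 wild-type brains. The ovary change was -2.44 (log2 scale, adjusted p = 1.02e-04), the brain change -0.47 (adjusted p = 0.387) and the tissue difference -1.97 ± 0.36 (SE, limma, adjusted p = 0.0456). Without that brain library the brain change was -0.83 and the tissue difference -1.60 (adjusted p = 0.00447). In the same library *w*, given below, was at 0.205 FPKM, against 0.337 and 0.205 FPKM in the other mutant brains. *Cyp6a17* was lower there, at 0.328 FPKM, against 1.48 and 1.06 FPKM. Why *tud* was high in this library was not tested.

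The eye pigment transporter gene *w* had a change of opposite direction in the 2 tissues. *w* (FBgn0003996, dm6 X from 2790599 to 2796466, minus strand) was at 3.05, 3.24 and 3.06 FPKM in mutant ovaries, against 0.257, 0.352 and 0.375 FPKM in wild-type ovaries. In female brains it was at 0.337, 0.205 and 0.205 FPKM in the mutant, against 2.51, 2.35 and 3.43 FPKM in wild-type. The mutant libraries were all above wild-type in the ovary and all below it in the brain. Its low group in each tissue was under 1 FPKM, so *w* reached the filter only through the other genotype. The change was 1.63 in the ovary and -1.58 in the brain, a tissue difference of 3.22 ± 0.25 (SE, limma, adjusted p = 1.37e-04; 95% interval 2.66 to 3.78). The control flies carry a w+ transgene on the balancer, and all flies carry the *w* allele on the X. The part of the transgene in the *w* values of wild-type flies was not tested. The gene overlaps *kirre* on the opposite strand.

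*pgc*, which encodes the Polar granule component protein that represses transcription in primordial germ cells, lay just outside the threshold. It was at 998, 716 and 755 FPKM in mutant ovaries, against 553, 548 and 571 FPKM in wild-type ovaries, and at 4.31, 1.09 and 3.05 FPKM in mutant brains, against 9.28, 8.27 and 9.56 FPKM in wild-type brains. Mutant libraries were again all higher in the ovary and all lower in the brain. The tissue difference was 2.04 ± 0.38 (SE, limma, adjusted p = 0.0504). An exact permutation test gave p = 0.005 (two-sided), the smallest that 400 arrangements of the genotypes within tissues can give. Libraries apart in opposite directions always give this smallest value, so it adds nothing to that pattern. Of the 36 genes past the test, 8 had this permutation p. It was 0.085 for *tud*, 0.075 for *piwi* and highest, at 0.55, for *Cyp6a17*. The limma adjusted p of *pgc* ranged over the alternatives on both sides of 0.05, with 0.00568 when mutant female brain replicate 2 was left out. The gene *dati*, at an adjusted p of 0.0499, and *hog*, at 0.049, lay just inside the threshold.

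Several of the largest tissue differences, *w* apart, were those of genes low in wild-type ovaries and higher in mutant ovaries. Their change in the brain was smaller. The filter took the mean of both genotypes, so a gene near 0 in wild-type ovaries was tested only if it was higher in the mutant. This pattern is thus partly set by the filter, as for *RpS10a*, *CG42329* and *hog*, with wild-type ovary means of 0.126, 0.0121 and 0.162 FPKM. The same holds in either tissue for a gene with a mean under 1 FPKM in 1 genotype, which was tested only if the other genotype was higher. Such a group mean was found in 14 of the 36 genes, among them *w*, *piwi*, *aurB* and *CR43086*. *RpS10a* (FBgn0027494, dm6 3R from 27652760 to 27653363, plus strand), a paralog of the ribosomal protein gene *RpS10b*, was at 70.8, 75.7 and 66.9 FPKM in mutant ovaries, against 0.115, 0.08197 and 0.183 FPKM in wild-type ovaries. In female brains it was at 2.26, 1.46 and 2.47 FPKM in the mutant and 1.68, 2.09 and 2.42 FPKM in wild-type. The brain libraries of both genotypes overlapped, while each mutant ovary exceeded every other library of the comparison. The ovary change was 6.00 and the tissue difference 6.01 ± 0.22 (SE, limma, adjusted p = 1.35e-07). Reads that fit both *RpS10a* and *RpS10b* may be split between them.

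*tut* (FBgn0052364, dm6 3L from 8209577 to 8210743, minus strand), which acts with *bam* and *bgcn* in the male germline to stop the divisions of spermatogonia, was at 71.6, 43.5 and 52.3 FPKM in mutant ovaries, against 1.04, 1.72 and 2.04 FPKM in wild-type ovaries. It was at 32.9, 19.2 and 33.5 FPKM in mutant brains and 24.4, 29.999 and 19.03 FPKM in wild-type brains. The gene was therefore well expressed in the brain of both genotypes, and mutant ovaries exceeded that level whereas wild-type ovaries were far below it. The tissue difference was 4.24 ± 0.37 (SE, limma, adjusted p = 2.63e-04).

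*CG14314* (FBgn0038581, dm6 3R from 18216142 to 18218014, plus strand) had the same form, with 24.3, 19.5 and 26.2 FPKM in mutant ovaries, against 2.62, 2.79 and 2.98 FPKM in wild-type ovaries, and 51.1, 62.96 and 54.9 FPKM in mutant brains, against 61.3, 63.7 and 63.1 FPKM in wild-type brains. Its ovary change was 2.67, its brain change -0.16 and its tissue difference 2.83 ± 0.16 (SE, limma, adjusted p = 1.16e-05). *Tina-1* (FBgn0035083, dm6 2R from 24940625 to 24942413, minus strand) was at 72.7, 70.6 and 74.8 FPKM in mutant ovaries, against 13.4, 11.4 and 13.6 FPKM in wild-type ovaries, and at 71.3, 82.02 and 66.7 FPKM in mutant brains, against 55.2, 50.1 and 57.6 FPKM in wild-type brains. Mutant ovaries and mutant brains thus had about the same level of *Tina-1*, and only the wild-type ovaries were low. The tissue difference of *Tina-1* was 2.00 ± 0.15 (SE, limma, adjusted p = 1.25e-04). *CG9123* rose less, with 13.9, 15.4 and 14.97 FPKM in mutant ovaries, against 5.097, 5.87 and 5.78 FPKM in wild-type ovaries, and 15.001, 17.1 and 14.7 FPKM in mutant brains, against 16.95, 18.8 and 18.1 FPKM in wild-type brains, a tissue difference of 1.45.

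The other protein-coding genes of this kind also rose in the mutant ovary. *ATPsynepsilonL*, which encodes a protein like the epsilon subunit of ATP synthase, was at 18.3, 8.85 and 14.1 FPKM in mutant ovaries, against 0.493, 0.891 and 0.787 FPKM in wild-type ovaries, and at 4.09, 1.28 and 1.99 FPKM in mutant brains, against 2.18, 2.01 and 1.94 FPKM in wild-type brains. *CG42329* was at 6.12, 6.197 and 4.499 FPKM in mutant ovaries, against 0.0202, 0 and 0.0161 FPKM in wild-type ovaries, where 1 library was listed at 0, and at 1.28, 0.807 and 1.79 FPKM in mutant brains, against 0.806, 1.14 and 1.28 FPKM in wild-type brains. *hog* was at 9.68, 5.75 and 8.38 FPKM in mutant ovaries, against 0.225, 0.0806 and 0.179 FPKM in wild-type ovaries, and at 3.55, 2.16 and 1.08 FPKM in mutant brains, against 3.07, 1.89 and 0.634 FPKM in wild-type brains. All of these mutant ovaries were above all wild-type ovaries, and the brain libraries of the genotypes overlapped. The tissue differences were 2.95 for *ATPsynepsilonL*, 2.57 for *CG42329* and 2.71 for *hog*. *hog* lies inside *NetB* on the same strand, so reads of the 2 genes may not be told apart.

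A further 3 genes that were clearly expressed in the brain of both genotypes were higher in mutant than in wild-type ovaries. *Cyp9c1*, a cytochrome P450 gene, was at 3.23, 4.33 and 4.35 FPKM in mutant ovaries, against 0.149, 0.128 and 0.4996 FPKM in wild-type ovaries, and at 16.8, 8.63 and 17.4 FPKM in mutant brains, against 13.03, 14.6 and 14.2 FPKM in wild-type brains. *Cep164*, whose mammalian namesake is a protein of the centriole appendages needed for cilia, was at 11.3, 9.37 and 11.9 FPKM in mutant ovaries, against 1.71, 1.92 and 1.83 FPKM in wild-type ovaries, and at 38.1, 83.9 and 44.6 FPKM in mutant brains, against 43.98, 46.3 and 43.5 FPKM in wild-type brains. *Ptr*, which encodes a membrane protein related to Patched, was at 3.91, 5.25 and 4.02 FPKM in mutant ovaries, against 1.04, 0.861 and 1.07 FPKM in wild-type ovaries, and at 39.3, 37.4 and 35.8 FPKM in mutant brains, against 31.3, 32.4 and 28.8 FPKM in wild-type brains. For *Cep164* mutant brain replicate 2 stood apart from the other brains, and for *Ptr* the mutant was slightly higher in the brain too, without overlap. The tissue differences were 2.01 for *Cyp9c1*, 1.84 for *Cep164* and 1.16 for *Ptr*.

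Both noncoding genes with an ovary change above the brain change rose in the mutant ovary. The pseudogene *CR43086* was at 13.7, 18.7 and 10.4 FPKM in mutant ovaries, against 0.0611, 0.0809 and 0.40002 FPKM in wild-type ovaries. It was at 1.56, 1.27 and 2.302 FPKM in mutant brains, against 0.641, 0.431 and 0.172 FPKM in wild-type brains, so mutant libraries were higher in both tissues and the tissue difference of 2.74 is one of size. The antisense RNA *asRNA:CR44806*, which overlaps the chloride cotransporter gene *kcc* on the other strand, was at 5.75, 9.24 and 5.65 FPKM in mutant ovaries, against 1.38, 0.6597 and 0.367 FPKM in wild-type ovaries, and at 3.63, 2.21 and 3.86 FPKM in mutant brains, against 3.38, 3.16 and 2.59 FPKM in wild-type brains. Its tissue difference was 2.09 (limma, adjusted p = 0.0343). The kit was stranded, but whether the counting used strand is not given in the sources used here. Of the 36 genes, 13 overlap a gene on the opposite strand and 4 overlap one on the same strand, and for these the values may hold reads of both genes.

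The 4 genes that fell in the mutant ovary by more than they changed in the brain were *tud*, *pelo*, *lncRNA:CR43242* and the unannotated identifier FBgn0039939. *pelo*, which encodes a factor that rescues stalled ribosomes and is needed for germline stem cells, was at 25.5, 26.8 and 29.95 FPKM in mutant ovaries, against 43.4, 43.5 and 44.2 FPKM in wild-type ovaries, and at 18.1, 23.6 and 21.3 FPKM in mutant brains, against 17.97, 18.3 and 16.6 FPKM in wild-type brains. *lncRNA:CR43242* was at 5.61, 5.58 and 5.51 FPKM in mutant ovaries, against 9.43, 10.05 and 11.2 FPKM in wild-type ovaries, and at 27.6, 28.6 and 30.1 FPKM in mutant brains, against 30.99, 28.9 and 24.6 FPKM in wild-type brains. FBgn0039939 was at 0.742, 1.06 and 0.997 FPKM in mutant ovaries, against 2.795, 3.04 and 2.75 FPKM in wild-type ovaries, and at 3.75, 3.09 and 2.63 FPKM in mutant brains, against 2.06, 1.496 and 1.42 FPKM in wild-type brains. Ovary libraries of the 2 genotypes did not overlap for any of the 4, and for FBgn0039939 the mutant brains were all above the wild-type brains. The tissue differences were -0.89 for *pelo*, -0.81 for *lncRNA:CR43242* and -1.65 for FBgn0039939.

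**Figure D2:**
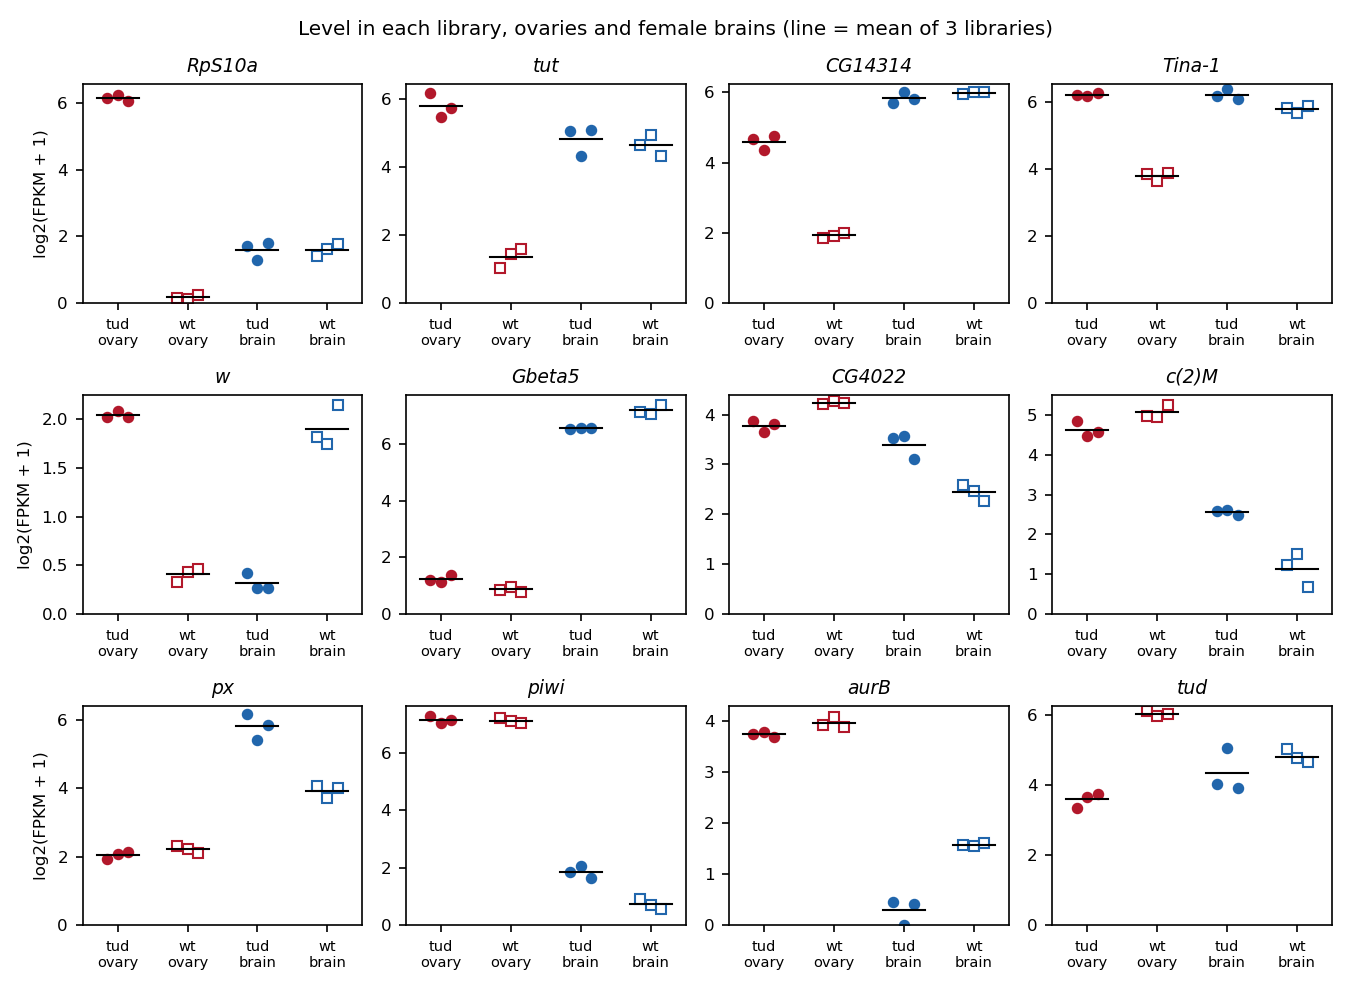
Expression level, log2(FPKM + 1), of 12 genes in each library of tud mutant ovary, wild-type ovary, tud mutant female brain and wild-type female brain, with filled circles for mutant and open squares for wild-type. Lines are means of 3 libraries. RpS10a, tut, CG14314 and Tina-1 are separated in the ovary alone or mainly there, w and Gbeta5 are higher in the mutant ovary and lower in the mutant brain, CG4022 and c(2)M are the other way round, and px, piwi and aurB differ mainly in the brain.

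The genes whose larger change was in the brain fall into a set of 11 that were higher in mutant brains. *px* (FBgn0003175, dm6 2R from 22494297 to 22562065, minus strand), which encodes the nuclear protein Plexus that restricts wing vein formation, was at 2.82, 3.23 and 3.35 FPKM in mutant ovaries and 3.97, 3.62 and 3.31 FPKM in wild-type ovaries. In the brain it was at 71.1, 41.3 and 56.9 FPKM in the mutant, against 15.8, 11.96 and 14.9 FPKM in wild-type. The ovary libraries overlapped, and the mutant brains were all far above the wild-type brains. The ovary change was -0.16, the brain change 1.89 (adjusted p = 0.04) and the tissue difference -2.06 ± 0.25 (SE, limma, adjusted p = 0.00423). *px* overlaps *gas* on the opposite strand.

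*piwi* (FBgn0004872, dm6 2L from 10982205 to 10987420, minus strand), the nuclear Piwi protein that guides piRNA silencing in ovarian germline and follicle cells, was at 155, 132 and 142 FPKM in mutant ovaries and 148, 137 and 131 FPKM in wild-type ovaries. In the brain it was at 2.59, 3.15 and 2.11 FPKM in the mutant, against 0.874, 0.611 and 0.474 FPKM in wild-type. The ovary libraries overlapped at a high level, while the brain libraries were apart at a low level. The wild-type brains were all under 1 FPKM, so *piwi* reached the filter in the brain only through the mutant. The brain change was 1.13 (adjusted p = 0.118, not past the test alone) and the tissue difference -1.08 ± 0.18 (SE, limma, adjusted p = 0.0308). *piwi* overlaps the end of *SCAR* on the opposite strand, and *SCAR* itself had a tissue difference of -0.0014 (limma, adjusted p = 0.998). Whether reads of *SCAR* entered the *piwi* values was not tested.

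*c(2)M*, which encodes a synaptonemal complex protein of the meiotic chromosome axis, was at 27.98, 21.1 and 22.7 FPKM in mutant ovaries, against 30.7, 30.1 and 37.3 FPKM in wild-type ovaries, and at 5.02, 5.14 and 4.59 FPKM in mutant brains, against 1.36, 1.84 and 0.597 FPKM in wild-type brains. The libraries of the genotypes were apart in both tissues and in opposite directions, and the tissue difference was -1.86 ± 0.27 (SE, limma, adjusted p = 0.0129). *CG4022* was at 13.7, 11.6 and 12.97 FPKM in mutant ovaries, against 17.5, 18.5 and 17.8 FPKM in wild-type ovaries, and at 10.5, 10.8 and 7.58 FPKM in mutant brains, against 4.9997, 4.51 and 3.85 FPKM in wild-type brains. It too was lower in every mutant ovary and higher in every mutant brain, with a tissue difference of -1.42. *CG14435* was at 17.8, 17.6 and 17.9 FPKM in mutant ovaries, against 20.2, 19.7 and 19.1 FPKM in wild-type ovaries, and at 16.1, 18.9 and 13.8 FPKM in mutant brains, against 9.68, 6.68 and 8.03 FPKM in wild-type brains. Its ovary change of -0.14 was small but without overlap, and its tissue difference was -1.06.

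Several regulators had a like pattern in the brain with overlapping ovary libraries. *sty*, which encodes Sprouty, an inhibitor of receptor tyrosine kinase signalling, was at 4.65, 5.11 and 5.396 FPKM in mutant ovaries and 5.71, 4.57 and 5.7997 FPKM in wild-type ovaries, and at 32.7, 40.3 and 31.9 FPKM in mutant brains, against 15.2, 11.1 and 9.84 FPKM in wild-type brains. *Mitf*, the fly relative of the MITF and TFEB transcription factors of lysosomal genes, was at 267, 188 and 221 FPKM in mutant ovaries and 216, 202 and 208 FPKM in wild-type ovaries, and at 43.1, 55.9 and 46.9 FPKM in mutant brains, against 20.7, 15.3 and 13.5 FPKM in wild-type brains. *cwo*, a transcriptional repressor of the circadian clock, was at 15.1, 17.1 and 18.2 FPKM in mutant ovaries and 16.8, 17.1 and 18.9 FPKM in wild-type ovaries, and at 15.9, 15.7 and 14.4 FPKM in mutant brains, against 9.39, 7.52 and 6.75 FPKM in wild-type brains. In all 3, every mutant brain exceeded every wild-type brain. The tissue differences were -1.54 for *sty*, -1.43 for *Mitf* and -0.95 for *cwo*, and none of the 3 brain changes passed the test in the brain alone.

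The remaining genes of this set were *Psf3*, *ena* and *CG7568*. *Psf3*, a subunit of the GINS complex of DNA replication, was at 25.7, 23.3 and 22.7 FPKM in mutant ovaries and 22.2, 22.4 and 23.6 FPKM in wild-type ovaries, and at 91.8, 104 and 97.4 FPKM in mutant brains, against 50.3, 44.4 and 43.2 FPKM in wild-type brains. *ena*, which encodes the actin regulator Enabled, was at 18.5, 18.6 and 19.4 FPKM in mutant ovaries and 21.1, 19.1 and 18.5 FPKM in wild-type ovaries, and at 33.02, 30.8 and 25.1 FPKM in mutant brains, against 16.04, 12.9 and 15.04 FPKM in wild-type brains. *CG7568* was at 31.3, 24.3 and 26.8 FPKM in mutant ovaries and 30.2, 24.9 and 27.5 FPKM in wild-type ovaries, and at 14.7, 18.6 and 14.7 FPKM in mutant brains, against 7.18, 4.56 and 3.504 FPKM in wild-type brains. Ovary libraries overlapped for all 3 and brain libraries for none. The tissue differences were -1.01 for *Psf3*, -1.01 for *ena* and -1.52 for *CG7568*. In wild-type brains of this set replicate 1 was often the highest, as for *CG7568*, *sty* and *Mitf*, and its part in the results is given with the left-out libraries.

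The opposite set holds 7 genes that were lower in mutant brains by more than they changed in the ovary. *Cyp6a17* (FBgn0015714, dm6 2R from 14873953 to 14875739, plus strand), a cytochrome P450 gene, fell in both tissues. It was at 0.383, 0.562 and 0.476 FPKM in mutant ovaries, against 9.03, 10.6 and 12.5 FPKM in wild-type ovaries, and at 1.48, 0.328 and 1.06 FPKM in mutant brains, against 49.4, 60.6 and 59.3 FPKM in wild-type brains. The mutant libraries of both tissues were near the bottom of the scale, and the wild-type level was higher in the brain. As a ratio of mean FPKM, mutant over wild-type was 0.0443 in the ovary and 0.0170 in the brain. The part of the wild-type level in the tissue difference was not tested. On the log2(FPKM + 1) scale the ovary change was -2.98, the brain change -4.92 and the tissue difference 1.94 ± 0.30 (SE, limma, adjusted p = 0.0177), and the adjusted p was above 0.05 with a pseudocount of 0.1. Its neighbour *Cyp6a23*, a close paralog that may share reads with it, had a tissue difference of 0.32 (adjusted p = 0.721).

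*aurB*, which encodes the Aurora B kinase of mitosis and meiosis, was at 12.5, 12.8 and 12.01 FPKM in mutant ovaries, against 14.2, 16.01 and 13.8 FPKM in wild-type ovaries, and at 0.3697, 0 and 0.337 FPKM in mutant brains, where 1 library was listed at 0, against 1.97, 1.93 and 2.05 FPKM in wild-type brains. Mutant libraries were below wild-type in both tissues, by more in the brain, with a tissue difference of 1.07 (limma, adjusted p = 0.048). *Top3alpha*, a topoisomerase that acts on DNA crossings, was at 19.9, 18.5 and 20.7 FPKM in mutant ovaries and 21.000, 21.2 and 18.5 FPKM in wild-type ovaries, and at 6.18, 5.999 and 5.201 FPKM in mutant brains, against 11.02, 12.1 and 12.5 FPKM in wild-type brains, a tissue difference of 0.88. *dati*, a zinc-finger transcription factor gene on chromosome 4 that acts in neurons, was at 2.22, 2.42 and 2.65 FPKM in mutant ovaries and 2.37, 2.17 and 1.897 FPKM in wild-type ovaries, and at 39.2, 33.4 and 36.4 FPKM in mutant brains, against 58.6, 56.6 and 54.3 FPKM in wild-type brains, a tissue difference of 0.75. For *Top3alpha* and *dati* the ovary libraries overlapped and the mutant brains were all lower.

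In 3 genes of this set the ovary went the other way. *Gbeta5*, a G protein beta subunit, was at 1.33, 1.19 and 1.63 FPKM in mutant ovaries, against 0.822, 0.956 and 0.7097 FPKM in wild-type ovaries, and at 92.8, 94.4 and 93.5 FPKM in mutant brains, against 138, 134 and 166 FPKM in wild-type brains. *CG3308* was at 19.7, 18.1 and 20.2 FPKM in mutant ovaries, against 16.6, 17.7 and 16.95 FPKM in wild-type ovaries, and at 64.2, 64.2 and 59.5 FPKM in mutant brains, against 91.6, 102 and 87.4 FPKM in wild-type brains. The unannotated identifier FBgn0019643 was at 4.33, 4.797 and 4.295 FPKM in mutant ovaries, against 3.05, 3.48 and 3.32 FPKM in wild-type ovaries, and at 74.97, 72.8 and 80.9 FPKM in mutant brains, against 132, 121 and 138 FPKM in wild-type brains. Libraries of the 2 genotypes did not overlap in either tissue for any of the 3, with the mutant higher in the ovary and lower in the brain. The tissue differences were 1.01 for *Gbeta5*, 0.74 for *CG3308* and 1.12 for FBgn0019643.

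Altogether 8 genes past the test had mutant libraries on one side of all wild-type libraries in the ovary and on the other side in the female brain. The share of all genes with this pattern was not counted. *w*, *Gbeta5*, *CG3308* and FBgn0019643 were higher in mutant ovaries and lower in mutant brains. *c(2)M*, *CG4022*, *CG14435* and FBgn0039939 were lower in mutant ovaries and higher in mutant brains. *w*, *Gbeta5* and FBgn0039939 had a group mean under 1 FPKM, and there reached the filter only through the other genotype. Of the 8, *w*, *CG4022* and FBgn0039939 also passed the test in the ovary alone, and none passed in the female brain alone.

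**Figure D3:**
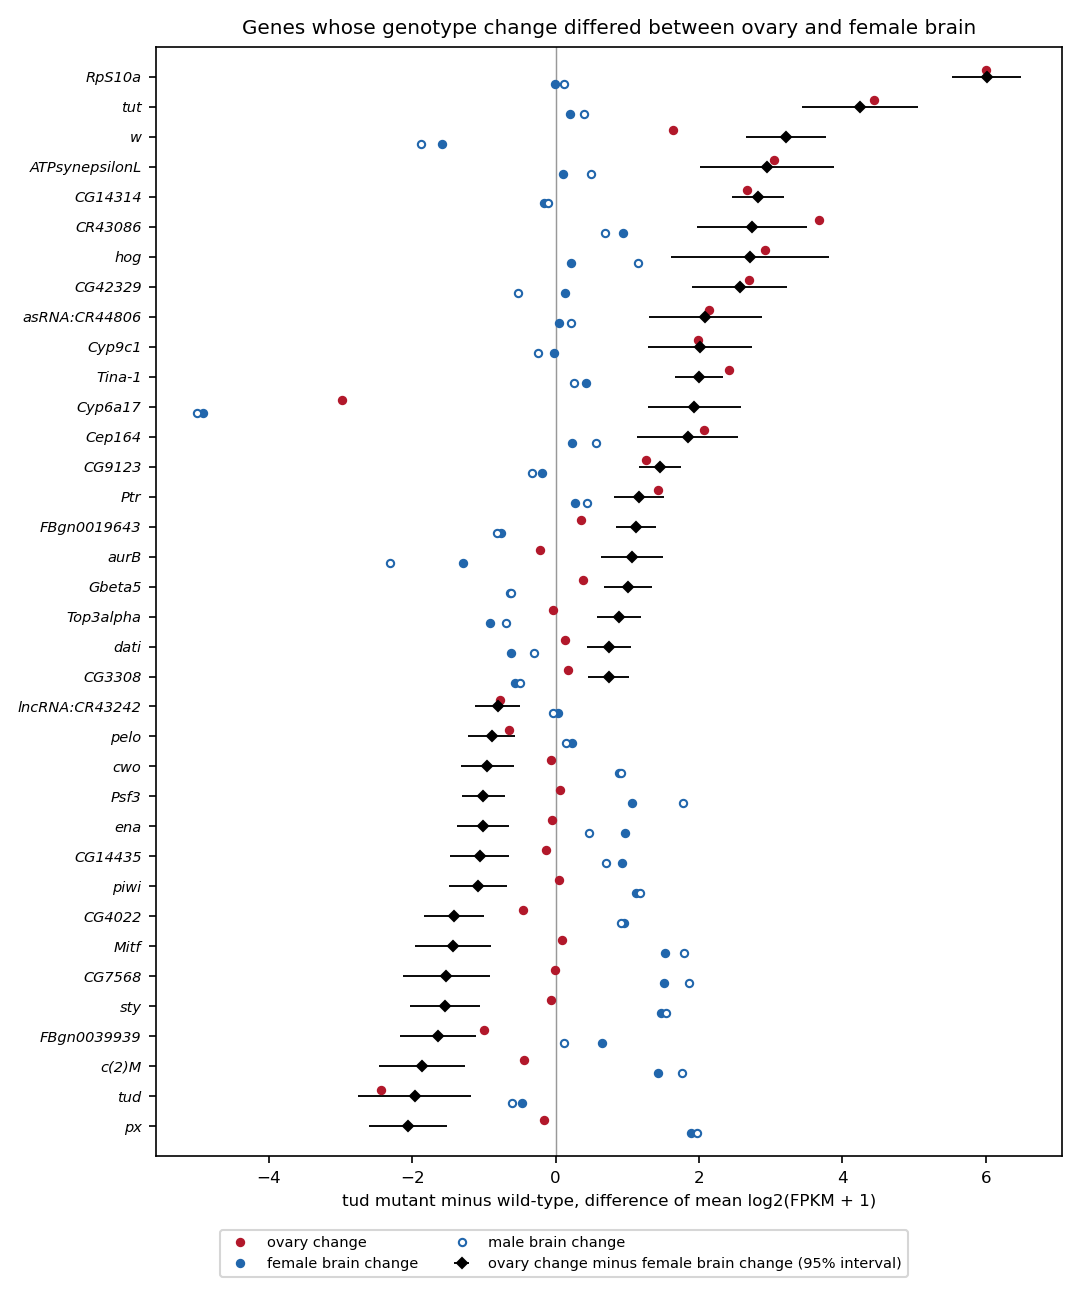
Tissue difference of the 36 genes past the test (black diamonds, ovary change minus female brain change, with 95% intervals) beside the tud mutant minus wild-type change in the ovary (red), female brain (filled blue) and male brain (open blue), all on the log2(FPKM + 1) scale. RpS10a is at the top with 6.01 and px at the bottom with -2.06, and the open and filled blue points of most genes lie close together.

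The male brains were not used for the tissue difference and give the brain change in other libraries of the same genotypes. The sign of the male brain change was that of the female brain change in 33 of the 36 genes, against 81.9% of all genes tested. For the 18 genes whose change was larger in the female brain than in the ovary, all 18 had the same sign in the male brain. In 21 of the 36 genes the male mutant libraries were all on the female side of the male wild-type libraries, and 17 of these are among the 18. Male libraries of the genotypes did not overlap for 36.5% of all genes. *px* changed by 1.97 in the male brain, where it was at 52.5, 72.3 and 98.2 FPKM in the mutant, against 17.3, 16.8 and 18.99 FPKM in wild-type. *piwi* had a male change of 1.18, with 1.704, 2.23 and 1.63 FPKM in the mutant, against 0.439, 0.196 and 0.149 FPKM in wild-type. *w* had 0.309, 0.101 and 0.701 FPKM in mutant male brains, against 3.08, 4.66 and 4.26 FPKM in wild-type male brains, so it was lower in mutant brains of both sexes. Only *Cyp6a17* among the 36 passed the test of the male brain change, which 8 genes passed in all. The exceptions in sign were *RpS10a*, *CG42329* and *lncRNA:CR43242*, whose female brain changes were all under 0.13 in size.

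The gene lists below were matched by symbol and are described by counts and medians, with no test of a list. The median tissue difference of all 7747 genes was 0.05. In lists of protein synthesis genes the median change was near 0 in the ovary and below 0 in the female brain, where no member passed the test of the brain change. The 82 cytosolic ribosomal protein genes tested had a median change of -0.11 in the ovary and -0.65 in the female brain, and a median tissue difference of 0.58 with 76 of 82 above 0. Only *RpS10a*, which is also in the list of testis-type genes, passed the test, and 11 genes (13.4%) had an unadjusted p under 0.05, against 19.8% of all genes. The median tissue difference was 0.33 in 70 mitochondrial ribosomal protein genes, 0.40 in 40 translation factor genes (27 above and 13 below 0), 0.38 in 17 aminoacyl-tRNA synthetase genes, 0.39 in 69 oxidative phosphorylation genes and 0.40 in 31 proteasome genes. Among these lists only *ATPsynepsilonL*, of oxidative phosphorylation, passed the test. The named members with the smallest p were *eIF3d1* and *eIF4H1* for the translation factors, at tissue differences of 0.73 (adjusted p = 0.0946) and -1.40 (adjusted p = 0.0733), and *TyrRS* and *AsnRS* for the synthetases, at 0.80 and 0.65.

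These medians rest in part on 1 library. In *tud* mutant female brain replicate 2 the cytosolic ribosomal protein genes added up to 76535 FPKM, against 175575 to 215840 FPKM in the other female brains, and without it their median tissue difference was 0.20. Without the same library the medians were 0.13 for mitochondrial ribosomal proteins, 0.23 for translation factors, 0.29 for synthetases, 0.22 for oxidative phosphorylation and 0.25 for the proteasome. This library held 1 end of an axis with 48.2% of the variance within the female brain groups, and the part of sample quality in these values was not tested.

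In lists of neuronal and sensory genes the median tissue difference was below 0, and no member passed the test of the tissue difference or of the brain change. The 16 genes of synaptic transmission tested had a median tissue difference of -0.58, with 5 above and 11 below 0, of which 3 above and 6 below had an unadjusted p under 0.05. The median without mutant female brain replicate 2 was -0.32. The smallest p of the list were those of *Eaat1*, a glutamate transporter gene that is also in the glial list, with a tissue difference of -0.67 (adjusted p = 0.0738), and of *Cadps*, a vesicle release gene, with -1.37 (adjusted p = 0.0795). All 4 photoreceptor genes tested were below 0, with a median of -1.04, and *norpA*, the phospholipase C of phototransduction, was at -1.48 (adjusted p = 0.0709) and *Galphaq*, its G protein, at -1.43 (adjusted p = 0.0517). Beside these, the 25 photoreceptor markers added up to 3575 to 11464 FPKM in mutant female brains, against 3748 to 4133 FPKM in wild-type, the lowest being mutant replicate 2, and the 13 neuron markers, of which none passed the filter in the ovary, added up to 1685 to 3424 FPKM, against 815 to 1555 FPKM. In bulk tissue, fewer cells of a type and less RNA per cell cannot be told apart, and the part of tissue makeup in the brain changes was not tested. The 11 glial genes tested had a median of -0.30, while the 17 glial markers added up to 3549 to 3815 FPKM in mutant and 3141 to 3580 FPKM in wild-type brains.

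Germline gene lists held few genes past the test, which 0.465% of all genes tested passed, while 19.8% had an unadjusted p under 0.05. Of 22 piRNA pathway genes tested, *piwi* alone passed, the median tissue difference was -0.12, and 1 gene was above and 6 were below 0 at an unadjusted p under 0.05 (31.8% of the list). Of 29 germ plasm and maternal genes none passed, 2 were above and 9 below at an unadjusted p under 0.05 (37.9%), and the median was -0.27. Of 35 testis-type genes matched only 5 were tested, of which *RpS10a* and *tut* passed, and the median was 0.86. The lists were chosen with earlier results of these data known, and *RpS10a* reached the filter through the mutant ovaries only. The testis-type values therefore only describe these genes. Of 22 DNA replication and cell cycle genes *aurB* passed and the median was near 0, at -0.0022. Of 60 cytochrome P450 and glutathione transferase genes *Cyp9c1* and *Cyp6a17* passed, with a median of 0.18, or -0.03 without mutant female brain replicate 2. Among 182 small nucleolar RNA genes none passed, and the values of such short RNAs depend on the size selection of the libraries.

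**Figure D4:**
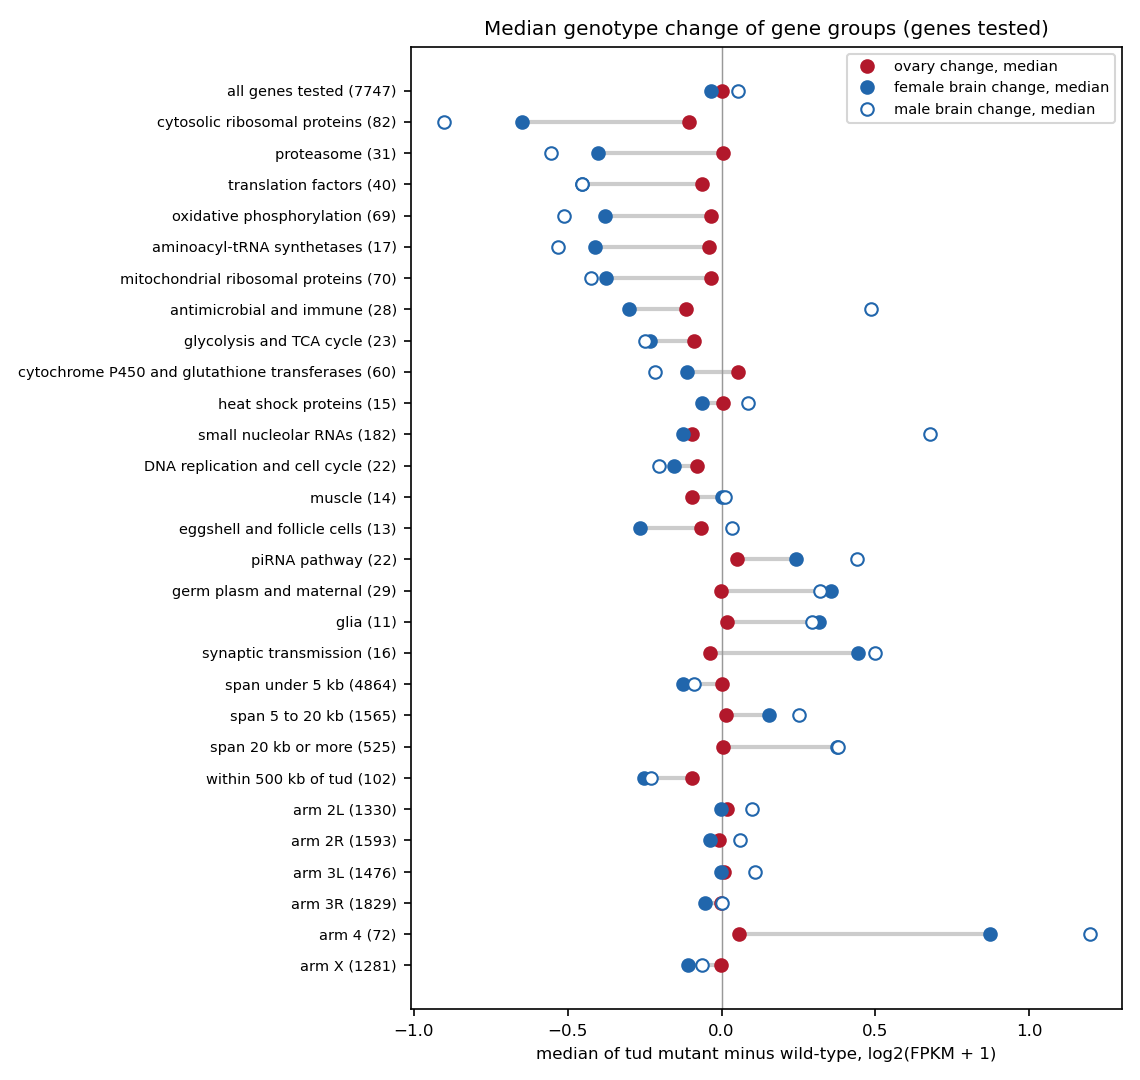
Median tud mutant minus wild-type change, log2(FPKM + 1), in the ovary (red), female brain (filled blue) and male brain (open blue) for all 7747 genes, gene lists with 10 or more genes tested, classes of gene span, genes near tud and chromosome arms; the number of genes tested is in parentheses. Ovary medians stay near 0, while female brain medians run from -0.65 for cytosolic ribosomal proteins to 0.87 for genes of chromosome 4.

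Gene length and position went with the tissue difference. Protein-coding genes spanning under 5 kb had a median tissue difference of 0.14 (4864 genes), those of 5 to 20 kb one of -0.14 (1565 genes) and those of 20 kb or more one of -0.36 (525 genes). The ovary medians of the 3 classes were 0.0012, 0.014 and 0.0039, and the brain medians -0.12, 0.16 and 0.37. In genes under 5 kb the tissue difference was above 0 in 3224 of 4864, and in those of 20 kb or more it was below 0 in 420 of 525. At an unadjusted p under 0.05 (limma), 627 were above and 185 below 0 in the short class. In the long class 14 were above and 186 below. The genes past the test were split much like their classes, which only describes them. Of the 18 that span under 5 kb, 14 had an ovary change above the brain change. The 4 that span 20 kb or more, *ena*, *px*, *sty* and *Mitf*, all had it below. A trend was removed from each library along summed exon length, which is not the span used above. *px*, *ena*, *cwo* and *dati* then no longer passed the test. Their tissue differences were then -1.59 for *px* (limma, adjusted p = 0.0533), -0.74 for *ena* (adjusted p = 0.0757), -0.74 for *cwo* (adjusted p = 0.104) and 1.03 for *dati* (adjusted p = 0.0608), so that of *dati* was larger than before. The trend along span was not removed, and the part of gene length in these differences was not tested further.

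The small chromosome 4 had the lowest median among the arms. Its 72 genes tested had a median tissue difference of -0.76, a median ovary change of 0.06 and a median female brain change of 0.87, and 38 were below and 2 above 0 at an unadjusted p under 0.05 (55.6%, against 19.8% of all genes). The median brain change in males was 1.20. Leaving out any 1 library kept the median tissue difference between -0.99 and -0.63. Past the test were *Mitf*, below 0, and *dati*, above 0. The medians of the 5 other arms lay between 0.02 and 0.11. Within 500 kb of *tud* 102 genes were tested and 31 passed the ovary test (30.4%, against 3.67% of all genes), 30 of them lower in the mutant. Their median was -0.10 in the ovary, -0.25 in the female brain and 0.0020 for the tissue difference, and only *tud* passed the test of that difference.

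The number of genes past the test depended on single libraries. It was 240 without wild-type female brain replicate 1, 193 of them with the ovary change below the brain change. Without mutant female brain replicate 2 it was 127, and without mutant female brain replicate 1 it was 68. It was 15 without *tud* mutant ovary replicate 3, 16 without wild-type ovary replicate 1 or wild-type female brain replicate 2, 17 without mutant or wild-type ovary replicate 2, 20 without wild-type ovary replicate 3 and 22 without mutant ovary replicate 1. All 36 genes still passed without mutant female brain replicate 2, and 35, all those tested, without wild-type female brain replicate 1. Across the 12 fits with 1 library left out, 12 of the 36 passed every time, 10 passed in 5 to 11 fits and 14 in 4 or fewer, among them *tud*, *piwi*, *Mitf* and *aurB*. When each tissue had its own spread, 23 genes passed, all among the 36, and *tud*, *piwi*, *pelo*, *aurB*, *cwo*, *ena* and *Gbeta5* were among those that did not.

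**Figure D5:**
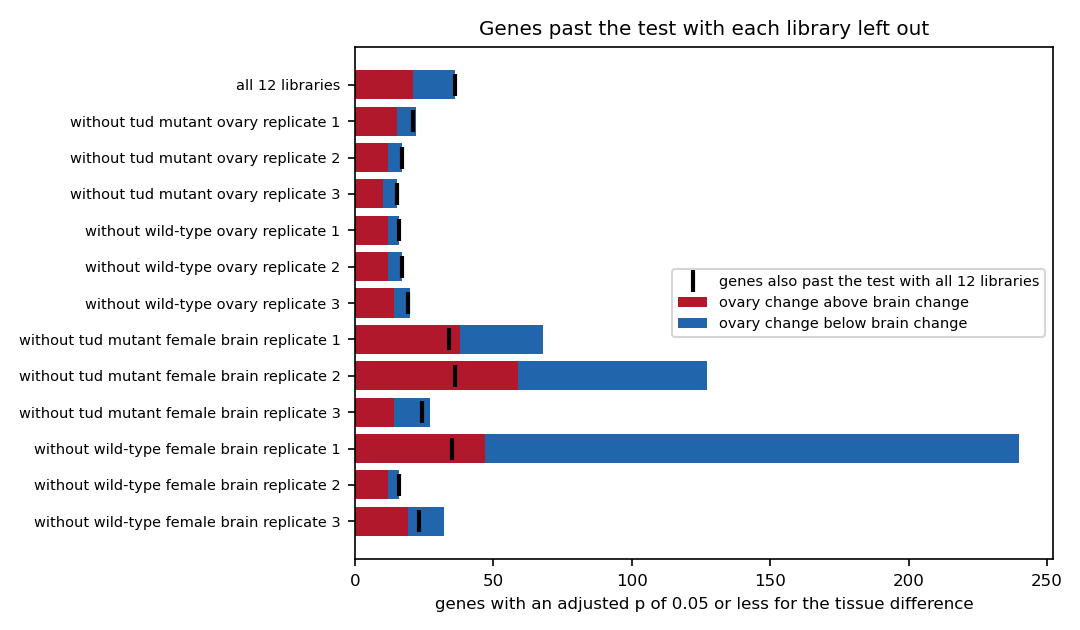
Number of genes with an adjusted p of 0.05 or less for the tissue difference with all 12 libraries and with each library left out, stacked by direction (red, ovary change above brain change; blue, ovary change below brain change). Black marks show how many of the 36 genes still passed. Leaving out an ovary library left 15 to 22 genes, and leaving out wild-type female brain replicate 1 gave 240.

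Of the 36 genes, 8 passed under every alternative in which they were tested and with every library left out. These were *RpS10a*, *tut*, *w*, *CG14314*, *Tina-1*, *CG9123*, *CG4022* and FBgn0019643. *RpS10a*, *tut*, *CG14314*, *Tina-1* and *CG9123* rose in the mutant ovary, with *Tina-1* also higher in every mutant brain by a smaller amount, *w* and FBgn0019643 were higher in mutant ovaries and lower in mutant brains, and *CG4022* was lower in mutant ovaries and higher in mutant brains. A mean under 1 FPKM in at least 1 of the 4 groups was found in 14 of the 36 genes, among them *RpS10a* and *w*. Such genes reached the filter in that tissue only through the other genotype, and the size of their difference depends on the pseudocount. From ratios of mean FPKM with no pseudocount, a comparison added after the data were seen, the tissue difference was larger in size in 13 of the 14 and smaller in *Cyp6a17*, at 1.38. It was 9.14 for *RpS10a*, 6.72 for *w* and 4.90 for *tut* on the log2 scale, and it kept its sign for all 36.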

How the data were processed

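Total RNA of ovaries and brains was sequenced by the authors with a stranded kit after depletion of ribosomal RNA and a size selection against 5S rRNA and tRNA. The authors mapped the reads with TopHat2 to dm6 and deposited FPKM per gene. The submitters' processing notes name TopHat2 2.0.13, Cuffnorm 2.2.1 and FastQC 0.10.1, and whether libraries were scaled to each other is not given in the sources used here. FPKM sums ran from 742402 to 905508 in the ovary libraries and from 987099 to 2557338 in the female brain libraries. Depth is not given, so no counting interval was computed.

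Libraries were grouped by the labels' tissue and condition. Values were transformed to log2(FPKM + 1), so a fold change of a low gene is understated, and a gene was kept when its mean FPKM reached 1 in the 6 ovary libraries and in the 6 female brain libraries. The tissue difference, mutant minus wild-type in the ovary less the same in the female brain, was fitted with limma 3.58.1 in R 4.3.3 on 12 libraries in 4 groups that share 1 estimate of the spread, with empirical Bayes moderation along the mean level. The change in each tissue, and in the male brain, was fitted on its own 6 libraries over the same genes. Tests were two-sided, and genes passed the test at 0.05 or less after Benjamini-Hochberg adjustment over all genes tested. Single genes were also compared with an exact permutation test (400 arrangements), which is a test of no genotype change in either tissue. The fits were tested on simulated data. Positions, biotypes and overlaps came from the Ensembl annotation of dm6, in which 17016 of 17288 identifiers carry a symbol and a position.

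All 36 genes past the test, *tud* and *w* among them, are given, with *pgc*. Up to 2 genes with the smallest p were also followed for each of 23 gene lists with 3 or more genes tested. Those of them not past the test are given here for some lists only. The genes and lists were chosen with earlier results of these data known. Cyclophilins, centrosomal *Cp* genes and *svp*, which the symbol patterns of 3 lists had taken in, were removed from them after matching. Alternatives were a pseudocount of 0.1, no filter or a filter at 5, median-of-ratios and quantile scaling within tissues, no trend, weights per tissue, a separate spread per tissue, all 18 libraries in the fit, an adjusted p of 0.01, a difference of at least 1, a replicate block, protein-coding genes only, removal of the gene length trend, and leaving out each library. The length trend was that along the summed exon length of a gene, not along its span. Same-numbered libraries of different groups did not vary together (correlation of deviations -0.20 to 0.17), so the replicate number is not treated as a pairing. Promoter motifs, which need genome sequence, were not analysed here. Figures were drawn with Python 3.11.15 and matplotlib 3.10.9.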

Additional observations from a re-analysis of the deposited data

Results flagged for a closer look

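Each of the 36 genes past the test is a gene whose genotype change differed between ovary and female brain by a test of the difference itself, and the values below are ovary change minus female brain change on the log2(FPKM + 1) scale. The values above 0 were 6.01 for *RpS10a*, 4.245 for *tut*, 3.216 for *w*, 2.95 for *ATPsynepsilonL*, 2.827 for *CG14314*, 2.736 for *CR43086*, 2.707 for *hog*, 2.569 for *CG42329*, 2.09 for *asRNA:CR44806*, 2.008 for *Cyp9c1*, 1.997 for *Tina-1*, 1.937 for *Cyp6a17*, 1.842 for *Cep164* and 1.453 for *CG9123*. Smaller positive values were 1.158 for *Ptr*, 1.117 for FBgn0019643, 1.068 for *aurB*, 1.009 for *Gbeta5*, 0.8849 for *Top3alpha*, 0.7501 for *dati* and 0.7382 for *CG3308*. The values below 0 were -0.8061 for *lncRNA:CR43242*, -0.8887 for *pelo*, -0.9523 for *cwo*, -1.007 for *Psf3*, -1.014 for *ena*, -1.058 for *CG14435*, -1.081 for *piwi*, -1.415 for *CG4022*, -1.425 for *Mitf*, -1.523 for *CG7568*, -1.543 for *sty*, -1.646 for FBgn0039939, -1.862 for *c(2)M*, -1.965 for *tud* and -2.057 for *px*.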

How the results depend on the processing

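The count of 36 genes with a tissue difference was 158 with no filter, 13 with a filter at 5 (where 19 of the 36 were tested), 23 with a separate spread per tissue, 22 with all 18 libraries in the fit and 13 at an adjusted p of 0.01. With a replicate block it was 11, 10 of them among the 36, with 3 opposite-direction genes and 160 ovary genes. The 8 opposite-direction genes became 26 with no filter, 2 with a filter at 5, 5 with a separate spread and 3 at an adjusted p of 0.01. The 284 ovary genes became 171 with a filter at 5, 114 at an adjusted p of 0.01 and 61 with a difference of at least 1. The 10 female brain genes became 16 with quantile scaling, 6 at an adjusted p of 0.01 and 27 with the exon length trend removed. The 33 genes of like sign in male and female brains became 18 with a filter at 5, where fewer genes were tested. Leaving out 1 library gave 15 to 240 genes with a tissue difference, 4 to 53 of opposite direction, 123 to 242 in the ovary (ovary libraries left out), 6 to 42 in the female brain (female brain libraries left out) and 29 to 34 of like sign in male brains. *Zasp52* alone changed sign, to 0.094 with the exon length trend removed. With array weights 31 genes passed, 24 of them among the 36, and the share above 0 was 45.2%, against 58.3%. That share was 69.6% with a separate spread, 76.9% at an adjusted p of 0.01 and 72.7% with the block. The causes were not tested, except that fewer genes or libraries enter some fits. Depth is unknown, so its limit on low genes was not measured.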

Other observations

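The other gene lists held no gene past the test of the tissue difference. The median ovary change minus female brain change was 0.23 in 23 genes of glycolysis and the TCA cycle, 0.10 in 15 heat shock genes, -0.03 in 14 muscle genes, -0.10 in 13 eggshell and follicle cell genes and 0.12 in 6 histone genes. It was 0.17 in 4 haemocyte genes, -0.13 in 9 fat body genes and 0.20 in the 1 gut gene tested. In 28 antimicrobial and immune genes it was 0.29, and it was -0.27 without *tud* mutant female brain replicate 2. In 182 small nucleolar RNA genes it was 0.03, and -0.51 without that library.

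The genes that passed the test of the female brain change, whether or not they passed in the ovary, included 4 with a protein product. Besides *px* and *Cyp6a17*, *MFS16* had an ovary change of -1.09 and a brain change of -1.27, and *Cyp9f3* had an ovary change of 0.38 and a brain change of 1.33. The tissue difference was 0.18 for *MFS16* (limma, adjusted p = 0.485) and -0.94 for *Cyp9f3* (limma, adjusted p = 0.0505). The genes that passed in both tissues numbered 4, and 1 of them, *Cyp6a17*, had a tissue difference past the test.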
